A study of Mus musculus with 162 samples.

Results

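The 53 presynaptic vesicle and release genes described here encode proteins of synaptic vesicles, of the machinery that fuses them with the plasma membrane, and of the active zone where they are released. They were taken by symbol from the normalized table and by Ensembl identifier from the count table, which holds 22879 genes, and all 53 were found. The cells came from mouse embryos of E17.5 to E18.5. The cytosol of each was drawn into a patch-clamp pipette and sequenced as a library of its own, in a study of neurexin splicing in developing neurons. Cells were collected from 3 mouse lines in which Cre recombinase is driven by Htr3a, by Lhx6 or by Nex. The submitters labelled 148 of the 162 cells as having passed their quality control, and those 148 are the basis of what follows.

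The submitters gave each passed cell 1 of 9 cell type labels. MGE-derived 1 held 18 cells (11 of the Htr3a line and 7 of the Lhx6 line) and MGE-derived 2 held 24 (17 Htr3a and 7 Lhx6). CGE-derived held 11 Htr3a cells, and GABAergic held 4 (3 Htr3a and 1 Lhx6). Glutamatergic 1 held 33 cells (23 Htr3a and 10 Nex) and Glutamatergic 2 held 13 (12 Htr3a and 1 Nex). Cajal Retzius held 12 Htr3a cells, VZ-derived held 11 (8 Htr3a, 2 Nex and 1 Lhx6), and Undefined held 22 (17 Htr3a, 4 Nex and 1 Lhx6). No label names the embryo, litter or slice of a cell, so cells are not independent replicates, each group counts as 1 sample, and no p-value is given for any comparison. A difference between lines cannot be told apart from one between the embryos they came from. How the labels were assigned is not given in the sources used here, so the labels may rest partly on the expression of the same cells.

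At a synapse, vesicles filled with transmitter dock at the active zone and are primed there by Munc13 and RIM proteins. Fusion is driven by the SNARE proteins synaptobrevin on the vesicle and syntaxin and SNAP25 on the plasma membrane, with complexins as regulators and synaptotagmins as calcium sensors, and NSF takes the used SNARE complexes apart. Synapsins tether the reserve of vesicles, Rab3 GTPases help bring vesicles to the membrane, and in the late embryonic brain many of these proteins are already made while synapses are only beginning to form.

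Total counts per passed cell ran from 1710224 to 24836041 with a median of 9463972.5, and the number of genes with a count ran from 2066 to 14810 with a median of 5363. Markers fixed in earlier work on these cells fitted most labels. The summed level of 6 GABAergic markers had a median of 1501.5 to 2245.3 CPM (counts scaled to 1000000 per cell) in the 4 GABAergic labels and of 0 in both glutamatergic labels, although 1 Glutamatergic 1 cell reached 1279.1 CPM. Cajal Retzius markers had a median of 12004.5 CPM in the Cajal Retzius cells. The VZ-derived cells did not carry the markers of ventricular zone progenitors: the summed level of 8 such markers had a median of 0 CPM (0 to 1002.1), while their glutamatergic markers had a median of 1158.7 CPM. The VZ-derived cells are therefore called below only by their label.

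Between 12 and 48 of the 53 genes had a count in a passed cell, with a median of 30, and with every cell thinned to 1710224 counts the median was 28. The median was highest in Glutamatergic 2 (39) and Cajal Retzius (36) and lowest in MGE-derived 1 (24.5) and CGE-derived (26), with ranges that overlapped between all labels. The number of these genes in a cell followed the number of all genes in it: Pearson's r was 0.88 over the 148 cells, a description of points that share their library. Median genes per cell were 7585 in Glutamatergic 2, 6714 in Cajal Retzius, 4954 in Glutamatergic 1, 4894 in CGE-derived and 4563 in MGE-derived 1, and the part of this in the differences below was not tested. The summed level of the set had a median of 6442.3 CPM over all passed cells and label medians from 4427.6 (GABAergic) to 8141.5 CPM (Glutamatergic 2).

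**Figure D1:**
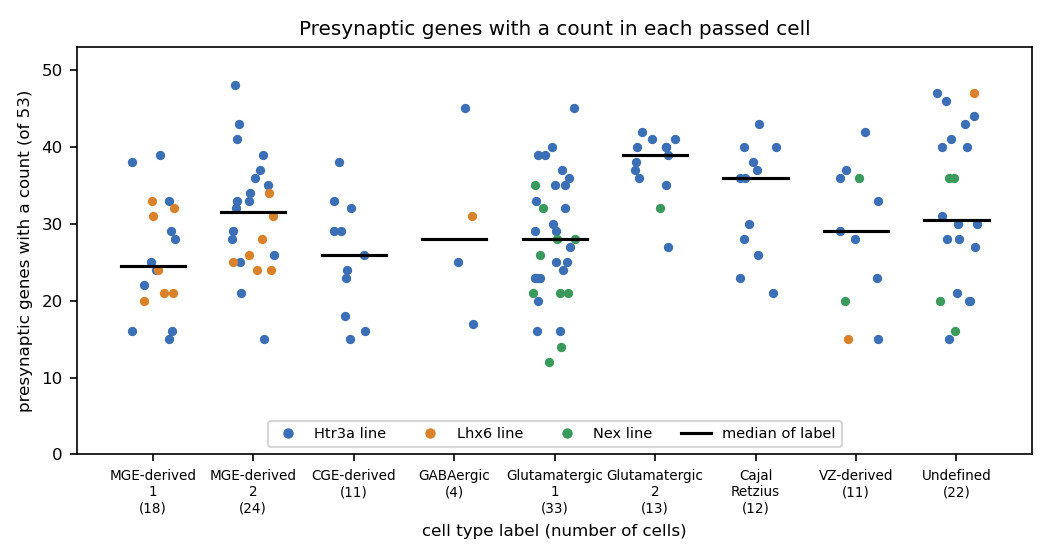
Number of the 53 presynaptic genes with at least 1 count in each passed cell (y axis) by cell type label (x axis, number of cells in brackets), with points coloured by mouse line and a bar at the median of each label. The medians run from 24.5 in MGE-derived 1 to 39 in Glutamatergic 2, and the points of all labels overlap.

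Of the 53 genes, 13 had a count in at least 75% of passed cells, 21 in 50 to 75%, 15 in 10 to 50% and 4 in fewer than 10%. The first class held the SNARE genes Snap25 (145 of 148 cells) and Vamp2 (141), the vesicle genes Syp, Syn1, Sv2a and Syngr3, the synaptotagmins Syt1, Syt5 and Syt11 (140 cells for Syt11), the active zone genes Pclo and Unc13a, and the GTPase genes Rab3a (142) and Rab3b. The scarcest were Syt2 (12 cells), Syt9 (14), Syt17 (9) and Cplx3 (8). Levels between genes were compared per length, as CPM per kb of exon over all passed cells. On that scale Syngr3, a vesicle membrane protein of the synaptogyrin family, and Rab3a stood highest, both at 196, followed by Syt4 (104), Syt5 (94.3), Vamp2 and Syt11 (both 90.4) and Snap25 (86.8). Syt1, the fast calcium sensor of release, stood at 32.6, and the lowest were Syt2 (0.0446), also a fast calcium sensor, and Doc2b (0.198).

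**Figure D2:**
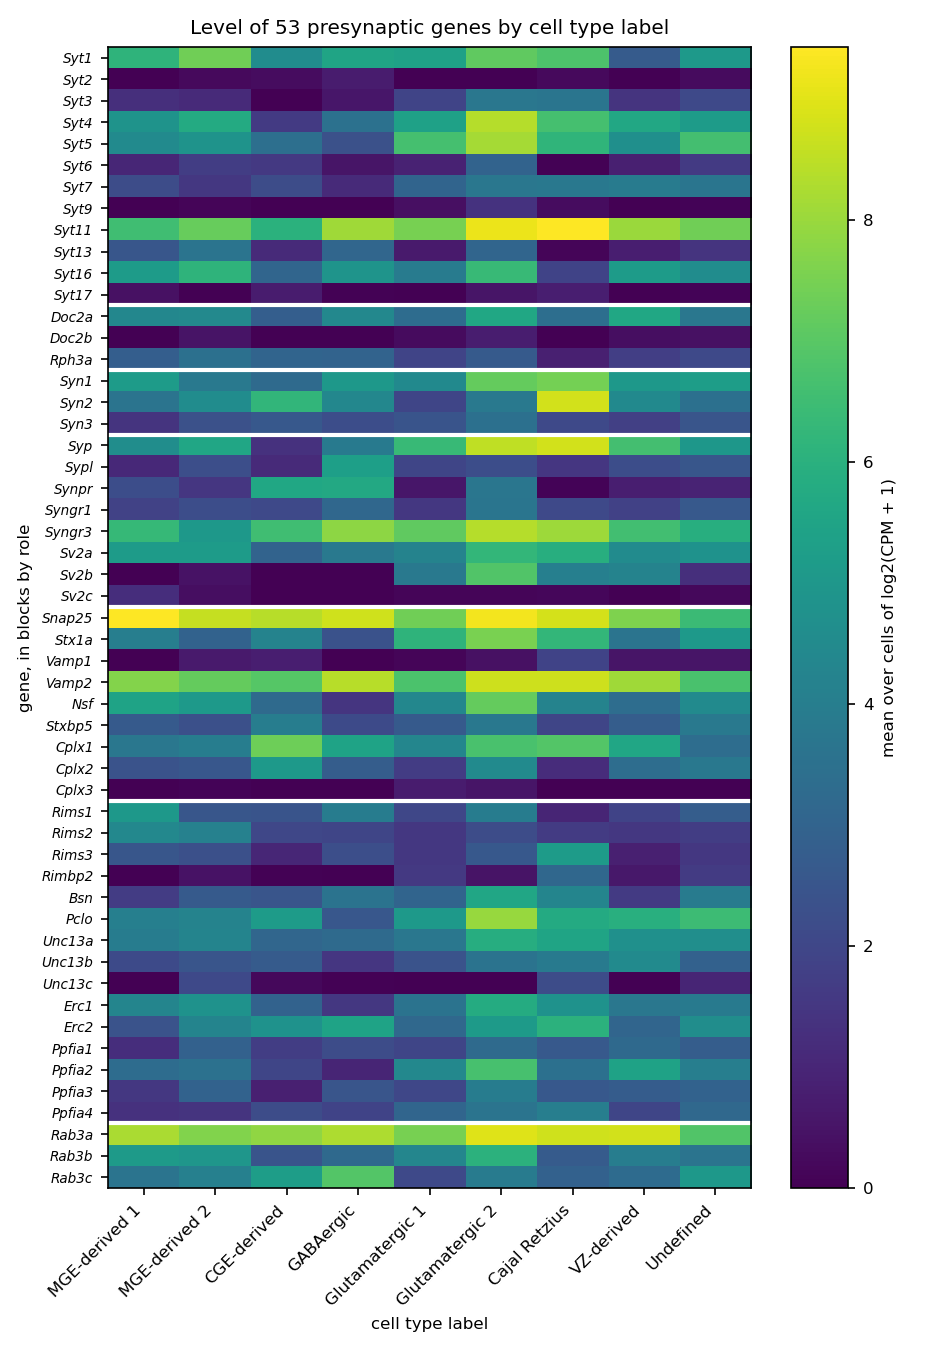
Level of each of the 53 genes (rows, grouped by role) in each of the 9 cell type labels (columns), as the mean over cells of log2(CPM + 1) in colour. Snap25, Vamp2 and Rab3a are high in every column, whereas Sv2b is near 0 in the GABAergic labels and Syn2 is highest in Cajal Retzius.

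The SNARE genes Snap25 and Vamp2 and the GTPase gene Rab3a were found in every label. Snap25 was at 936 CPM in MGE-derived 1, 765 in Glutamatergic 2, 630 in MGE-derived 2, 565 in CGE-derived, 548 in GABAergic, 546 in Glutamatergic 1, 522 in Cajal Retzius, 463 in VZ-derived and 393 in Undefined cells, from the summed counts of each label. Vamp2 ran from 257 CPM (MGE-derived 2) to 512 CPM (Glutamatergic 2), and Rab3a from 294 CPM (MGE-derived 2) to 648 CPM (MGE-derived 1). For each of these genes the cells of neighbouring labels in the order overlapped. Stx1a, the syntaxin gene, ranged more widely, from 13.7 CPM (GABAergic) to 284 CPM (Glutamatergic 2) in the labels other than Undefined. Counts of Snap25, Vamp2, Stx1a and Syt1 were found together in 13 of 13 Glutamatergic 2 cells (100%, exact 95% binomial interval 75.3 to 100%), in 11 of 12 Cajal Retzius cells and in 21 of 33 Glutamatergic 1 cells. They were found together in 9 of 18 MGE-derived 1 cells, 14 of 24 MGE-derived 2 cells, 5 of 11 CGE-derived cells and 3 of 11 VZ-derived cells (27.3%, 6.02 to 61.0%). Such intervals cover counting error only.

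Sv2b, Stx1a and Syn2 are described in several of the comparisons below, and Syn1 is the partner of Syn2. Sv2b encodes a transporter-like glycoprotein of synaptic vesicles, Stx1a the plasma membrane syntaxin, and Syn1 and Syn2 are synapsins. Their sequences upstream of the start site are shown so that these 4 promoters can be compared, taken from RefSeq on GRCm38.p6 and read 5′ to 3′ on the gene's strand. Capitals mark matches, on either strand, to 4 letter strings: GGGCGGG, which is known as the GC box, then TGACGTCA, the cAMP response element, then TTCAGCACC, the left part of the element bound by REST (a repressor of neuronal genes), and also TATAAA. The Sv2b window (ENSMUSG00000053025) is chr7:75309263-75309512 on the minus strand, the Stx1a window (ENSMUSG00000007207) chr5:135023232-135023481 on the plus strand, the Syn2 window (ENSMUSG00000009394) chr6:115134652-115134901 on the plus strand, and the Syn1 window (ENSMUSG00000037217) chrX:20921005-20921168 on the minus strand.
Sv2b: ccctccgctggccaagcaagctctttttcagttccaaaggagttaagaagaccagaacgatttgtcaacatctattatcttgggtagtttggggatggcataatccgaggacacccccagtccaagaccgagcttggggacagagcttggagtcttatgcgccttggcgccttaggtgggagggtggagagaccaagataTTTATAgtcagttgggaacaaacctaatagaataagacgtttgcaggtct
Stx1a: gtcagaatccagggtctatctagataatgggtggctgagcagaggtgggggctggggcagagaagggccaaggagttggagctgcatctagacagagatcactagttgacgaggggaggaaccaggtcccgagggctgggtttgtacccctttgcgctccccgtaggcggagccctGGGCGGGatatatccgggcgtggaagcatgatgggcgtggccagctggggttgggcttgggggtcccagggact
Syn2: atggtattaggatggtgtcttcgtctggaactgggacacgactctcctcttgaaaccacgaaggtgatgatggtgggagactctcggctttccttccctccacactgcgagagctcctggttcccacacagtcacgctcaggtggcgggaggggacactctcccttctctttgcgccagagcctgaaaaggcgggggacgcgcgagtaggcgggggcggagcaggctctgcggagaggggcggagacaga
Syn1: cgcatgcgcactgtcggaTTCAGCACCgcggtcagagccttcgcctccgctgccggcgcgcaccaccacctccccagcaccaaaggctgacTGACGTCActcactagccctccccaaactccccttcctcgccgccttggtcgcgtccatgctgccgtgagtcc
The capitals in Sv2b are TATAAA on the opposite strand, those in Stx1a are GGGCGGG, and those in Syn1 are TTCAGCACC followed by TGACGTCA, while Syn2 held none of the 4 strings in this window. For 41 of the 53 genes an entry of the RefSeq promoter table was used, 55 entries in all, each of 300 bases. The other 12 genes had no entry that was used, which does not mean that they have none in that table. GGGCGGG was in 32 of the 55 (58.2%), against 25.6% of 32851 promoters of the same length, and TGACGTCA was in 1 (Syn1), against 1.79%. TTCAGCACC was in 3 entries (Ppfia3, Unc13a and Syn1), against 0.371%, and TATAAA in 3 entries of 2 genes (Rab3b and Sv2b), against 13.6%. No 2 matches overlapped. A match is a description of letters and was not set against any measurement of binding.

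Both of the following measures are used for each comparison. The log2 difference is the difference of the means over cells of log2(CPM + 1), with the SD between cells of each group. The fold is the ratio of CPM from summed counts, in which deep cells and cells of high level weigh more. A gene entered a comparison if a count was present in 10% or more of the cells on either side, and was called higher or lower at a log2 difference of at least 1. Coding genes on the opposite strand overlap 13 of the 53 genes: Syt2, Syt3, Syt6, Doc2a, Syn1 (Araf and Timp1), Syn2 (Timp4), Syn3, Syngr1 (Rpl3), Sv2c, Vamp1, Unc13a (Colgalt1), Ppfia2 (Acss3) and Rab3a (Mpv17l2). The overlap is of whole gene spans, and whether exons overlap was not checked. Whether the counting used strand is not given in the sources used here. Reads from any exons shared by such pairs therefore cannot be told apart, and the levels of these 13 genes are uncertain to that extent.

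The 57 cells of the 4 GABAergic labels were compared with the 46 cells of the 2 glutamatergic labels. More presynaptic genes stood lower than higher in the GABAergic cells: 15 of 50 genes counted were lower, where 9.74% of all 13139 genes were, and 6 were higher, where 6.07% of all genes were. The median log2 difference was -0.21 over the presynaptic genes and -0.02 over all genes. Syt17, Vamp1 and Cplx3 had too few cells with a count. Every pair of groups overlapped in each gene named.

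Sv2b was at 0 CPM in all 18 MGE-derived 1 cells, which allows a share of up to 16.7% of such cells with a count (3 of 18, or 18.53% by the exact interval), and in all 4 GABAergic cells. Counts were present in 3 of the 24 cells labelled MGE-derived 2 and 2 of the 11 labelled CGE-derived. Across the 57 GABAergic-label cells the lowest, median and highest levels were 0, 0 and 79.2 CPM, against 0, 112 and 1359 CPM in the glutamatergic cells, where 32 of 46 had a count. The log2 difference was -4.49 (SD 1.00 and 3.78), and -5.45 among Htr3a cells alone. Summed counts gave 1.91 against 173 CPM, a 90.6-fold difference, and 1 MGE-derived 2 cell held 84.4% of the GABAergic counts, without which their level was 0.304 CPM. Of the other SV2 genes, Sv2a, the form found at most synapses, was at 122 against 105 CPM. Sv2c stood the other way by sums, at 10.7 against 0.320 CPM, with a count in 10 of 57 and 2 of 46 cells and a log2 difference of 0.41. Among Htr3a cells the difference of Sv2c was -0.03.

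Stx1a was found in 33 of 57 GABAergic-label cells (0, 3.36 and 762 CPM as lowest, median and highest) and in 41 of 46 glutamatergic cells (0, 189 and 1103 CPM). The GABAergic cells were lower by a log2 difference of -3.03 (SD 3.64 and 3.13) and 2.93-fold by sums, and by -2.24 among Htr3a cells. Syp encodes synaptophysin, an abundant vesicle membrane protein, and its levels were 0, 28.5 and 1025 CPM against 0, 240 and 1257 CPM. Its log2 difference was -2.63 (SD 3.6 and 3.04), and -3.98 among Htr3a cells. Syt5, a synaptotagmin of vesicles and dense-core granules, had a median of 42.6 against 275 CPM, a log2 difference of -2.77 (SD 3.74 and 3.11), and -3.92 among Htr3a cells.

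Further genes lower in the GABAergic cells were Syt4, a synaptotagmin that does not bind calcium in the usual way (197 against 751 CPM, 40 of 57 and 33 of 46 cells), the liprin genes Ppfia2 (67.0 against 137 CPM) and Ppfia4 (22.8 against 61.9 CPM), and Bsn, which encodes the active zone scaffold Bassoon (28.4 against 76.9 CPM). Another 7 genes were past the log2 difference without meeting the rule for names: Syt3, Syt7, Syt11, Syn1, Syngr3, Rimbp2 and Pclo. For Syn1 the measures differed in direction, with a log2 difference of -1.02 and a level of 134 against 122 CPM by sums.

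Syn2 led the genes that stood higher in the GABAergic cells. It was found in 37 of 57 of them (0, 27.7 and 1821 CPM) and in 21 of 46 glutamatergic cells (0, 0 and 534 CPM). The log2 difference was 2.08 (SD 4.0 and 3.26), 2.55-fold by sums, and 1.35 among Htr3a cells. Rims2, a RIM scaffold of the active zone, was at 78.1 against 19.7 CPM (log2 difference 1.96), and Rph3a, encoding rabphilin, a Rab3-binding C2 protein, at 111 against 32 CPM (log2 difference 1.01). Syt13, Synpr and Rab3c were the other 3 genes past the threshold. Snap25 (0.91), Vamp2 (0.07), Rab3a (0.01), Syt1 (0.41), Cplx1 (-0.35), Cplx2 (0.54), Rims1 (0.83), Unc13a (-0.48) and Nsf (-0.53) had log2 differences smaller than 1. Among Htr3a cells alone Vamp2 (-1.05), Nsf (-1.63), Sv2a (-1.12 from -0.14) and Cplx2 (1.21) were past 1, and Rph3a (0.90) was not. By role, 5 of 11 synaptotagmins counted, 5 of 15 active zone genes, 3 of 8 vesicle membrane genes and 1 of 7 SNARE genes or regulators were lower. Microglial RNA was low in most cells of these labels, with label medians of 0.169 to 199.6 CPM over 8 markers but up to 17302.5 CPM in 1 MGE-derived 1 cell and none of the 8 at 0 in any label, and its part in these differences was not tested.

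**Figure D3:**
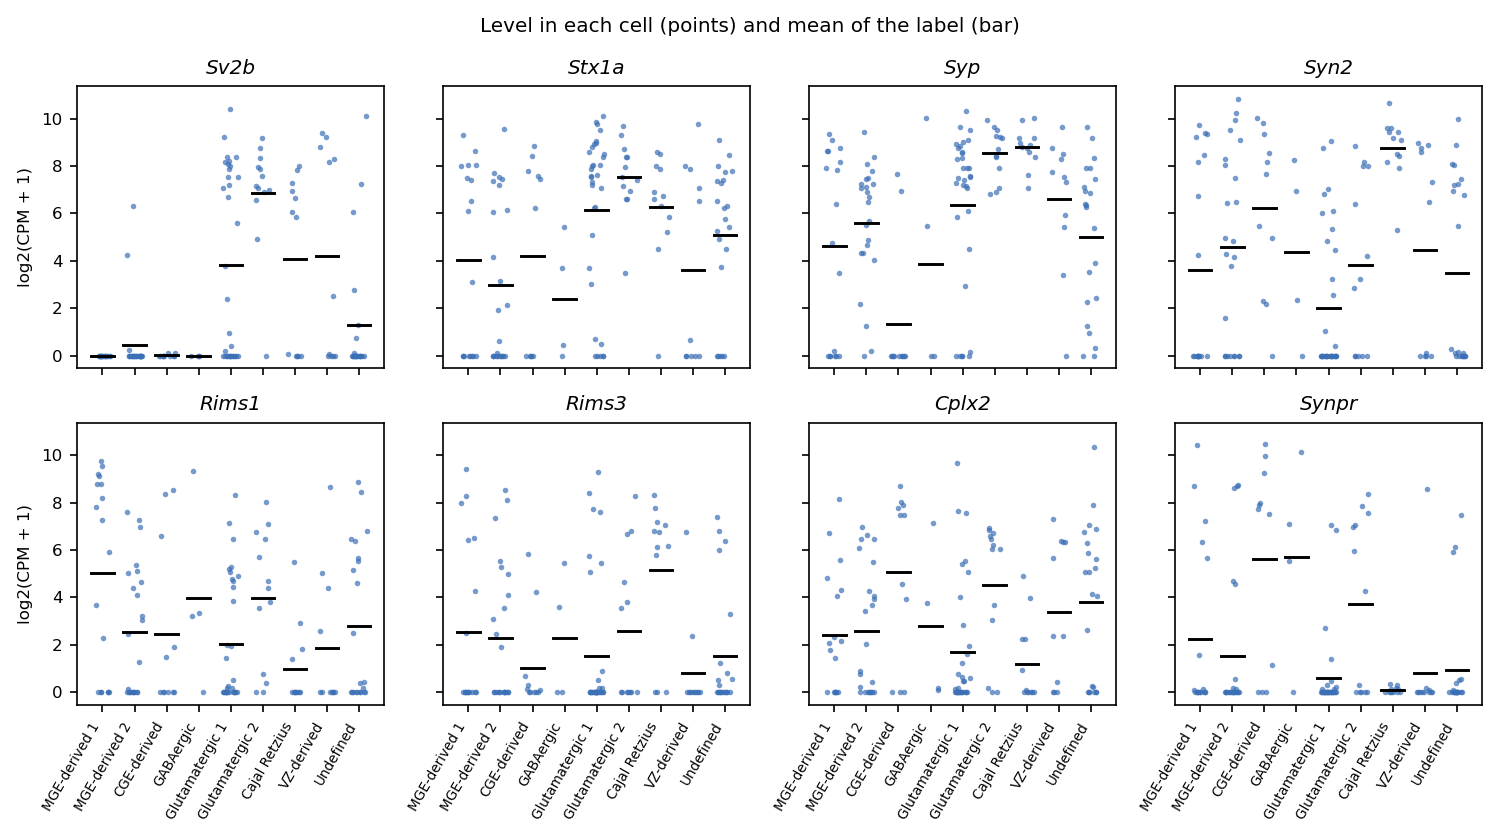
Level in each passed cell, as log2(CPM + 1) on the y axis, of Sv2b, Stx1a, Syp, Syn2, Rims1, Rims3, Cplx2 and Synpr, by cell type label on the x axis. The bar is at the mean of each label. Sv2b is at 0 in all MGE-derived 1 cells, Syn2 is above 0 in all 12 Cajal Retzius cells, and for most genes a label holds both cells at 0 and cells at high levels.

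The 42 cells of the MGE-derived labels were compared with the 11 CGE-derived cells. The labels do not spell these letters out; in this field they usually stand for the medial and caudal ganglionic eminences, where interneurons are born. Of 50 genes counted, 19 were higher in the MGE-derived cells, where 17.4% of all 12753 genes were, and 7 were lower, where 10.8% were. The median log2 difference was 0.49 over the presynaptic genes and 0.22 over all genes, with medians of 4759.5 and 4894 genes per cell. With only cells of like gene number (29 against 9) these medians were 0.04 and -0.01. The synaptophysin relatives stood in opposite directions. Syp had a count in 35 of the 42 MGE-derived cells (0, 85.5 and 685 CPM) but in only 2 of the 11 CGE-derived ones (0, 0 and 203 CPM), with a log2 difference of 3.85 (SD 3.27 and 2.96), and 2.47 among Htr3a cells. Synpr, which encodes synaptoporin, had a count in 16 of the 42 MGE-derived cells (0, 0 and 1384 CPM) against 8 of the 11 CGE-derived ones (0, 212 and 1413 CPM), with a log2 difference of -3.81 (SD 3.29 and 4.35). Per length, Synpr made up 78.4% and Syp 12.7% of the summed CPM of Syp, Synpr and Sypl in the CGE-derived label.

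Both complexins that were widely found stood lower in the MGE-derived cells. Cplx1 was at 150 against 336 CPM (27 of 42 and 10 of 11 cells, log2 difference -3.45, SD 3.77 and 2.68), and Cplx2 at 23 against 148 CPM (27 of 42 and 8 of 11 cells, log2 difference -2.58, SD 2.62 and 3.58). The synaptotagmins stood the other way: 6 of 10 counted were higher in the MGE-derived cells and none lower. Syt4 was at 230 against 39.9 CPM (34 of 42 and 4 of 11 cells, log2 difference 3.76) and Syt1 at 412 against 182 CPM (log2 difference 2.26, and 1.41 among Htr3a cells). Rab3b, a Rab3 form, was at 170 against 44.5 CPM (log2 difference 2.58), and Erc1, an active zone scaffold of the ELKS family, at 152 against 66.0 CPM (log2 difference 1.60). Of the active zone genes 7 of 15 were higher and 1 (Erc2) lower. Snap25 (0.54), Vamp2 (0.48) and Rab3a (0.03) had log2 differences smaller than 1. The CGE-derived label held Htr3a cells alone, whereas 14 of the 42 MGE-derived cells were of the Lhx6 line. Of the 6 synaptotagmins, 4 (Syt1, Syt4, Syt5 and Syt13) were also higher in the Lhx6 than in the Htr3a MGE-derived cells. Erc1 was too, but Syt3, Syt16 and Rab3b were not. The part of line in these differences was not tested.

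Between the MGE-derived labels, 4 of 52 genes counted were higher in the 18 cells of MGE-derived 1, where 2.61% of all 13837 genes were, and 7 were lower, where 22.6% were. These counts moved with the processing: 17 were lower among Htr3a cells alone, 15 with the deposited normalized values, and 10 were higher by summed counts. Rims1, a RIM scaffold that recruits calcium channels and Munc13, was the gene named as higher. It was found in 12 of 18 MGE-derived 1 cells (0, 106 and 864 CPM) and in 14 of 24 MGE-derived 2 cells (0, 2.93 and 192 CPM), with a log2 difference of 2.50 (SD 4.13 and 2.73) and 6.27-fold by sums. It made up 65.4% of the RIM genes' CPM per kb in MGE-derived 1 and 23.4% in MGE-derived 2, where Rims2 held 49.0%. Erc2 (32.4 against 81.4 CPM) and the liprin gene Ppfia3 (12.2 against 35.9 CPM) were lower. The other genes past the log2 threshold were Syn1, Syngr3 and Stx1a, which were higher, and Syt1, Syt13, Sypl, Ppfia1 and Unc13c, which were lower. Unc13c, the Munc13 form best known from cerebellum, was singled out after its values were seen. It was at 0 in 18 of 18 MGE-derived 1 cells, which allows the same share as for Sv2b, and was found in 10 of 24 MGE-derived 2 cells, the highest at 302 CPM. In MGE-derived 2 it held 38.9% of the Munc13 genes' CPM per kb. Rab3a, at 648 against 294 CPM by sums, had a log2 difference of 0.56. With only cells of like gene number (10 against 13) the log2 differences of Rims1, Erc2 and Ppfia3 were 1.12, -0.60 and -0.94.

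The 12 Cajal Retzius cells, early-born neurons of the marginal zone, were compared with the same 46 glutamatergic cells, so this comparison shares its reference cells with that of the GABAergic labels. Of 52 genes counted, 15 were higher, where 34.0% of all 12722 genes were, and 10 were lower, where 7.97% were. The median log2 difference was 0.31 over the presynaptic genes and 0.51 over all genes, in cells with more genes per cell (median 6714 against 5620.5). By summed counts the medians were -0.25 and -0.10, with 6 genes higher and 16 lower.

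Syn2 was found in all 12 Cajal Retzius cells (38.6, 563 and 1635 CPM) and in 21 of 46 glutamatergic cells (0, 0 and 534 CPM). The log2 difference was 6.27 (SD 1.33 and 3.26), and summed counts gave 552 against 85.6 CPM, 6.45-fold. On that log2 scale the value from summed counts was 2.68, and among Htr3a cells the difference was 5.55. Syn2 held 52.2% of the synapsins' CPM per kb in this label. Syn1 was at 226 against 122 CPM (12 of 12 and 38 of 46 cells, log2 difference 2.23).

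The active zone genes of Cajal Retzius cells differed in which family member was found. Rims3, a short RIM form, was at 95.2 against 39.0 CPM (9 of 12 and 17 of 46 cells, log2 difference 3.32, SD 3.19 and 3.04), whereas Rims1 was at 5.07 against 32.6 CPM (4 of 12 and 29 of 46 cells, log2 difference -1.60). Rims3 held 90.6% of the RIM genes' CPM per kb in these cells. Unc13c was found in 6 of 12 Cajal Retzius cells at 14.1 CPM by sums, and in the glutamatergic cells it had 1 count in 1 of 46 cells.

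Complexins and synaptotagmins of Cajal Retzius cells also differed between family members. Cplx2 was at 3.10 against 42.4 CPM (6 of 12 and 29 of 46 cells, 13.7-fold, log2 difference -1.29), while Cplx1, at 180 against 172 CPM, held 99.2% of the complexins' CPM per kb. Syt16 was at 53.2 against 146 CPM (4 of 12 and 35 of 46 cells, log2 difference -2.71) and Rab3b at 14.2 against 139 CPM (log2 difference -2.11). Also lower were Ppfia2 (44.5 against 137 CPM), Rph3a (7.88 against 32 CPM) and Stxbp5, which encodes the syntaxin-binding protein tomosyn (12.3 against 62.9 CPM). Syp was found in all 12 cells (134, 462 and 1030 CPM, against 0, 240 and 1257 CPM, log2 difference 1.81), and Snap25, Vamp2 and Rab3a were found in all 12 as well, with log2 differences of 0.90, 1.38 and 0.85. Among Htr3a cells alone Vamp2 (0.60) and Stxbp5 (-0.79, from -1.03) were under 1. With only cells of like gene number (6 against 23) Rims3 was at 2.16, Rab3b at -4.57, Cplx2 at -3.04, Vamp2 at 0.26 and Cplx1 at 0.24.

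**Figure D4:**
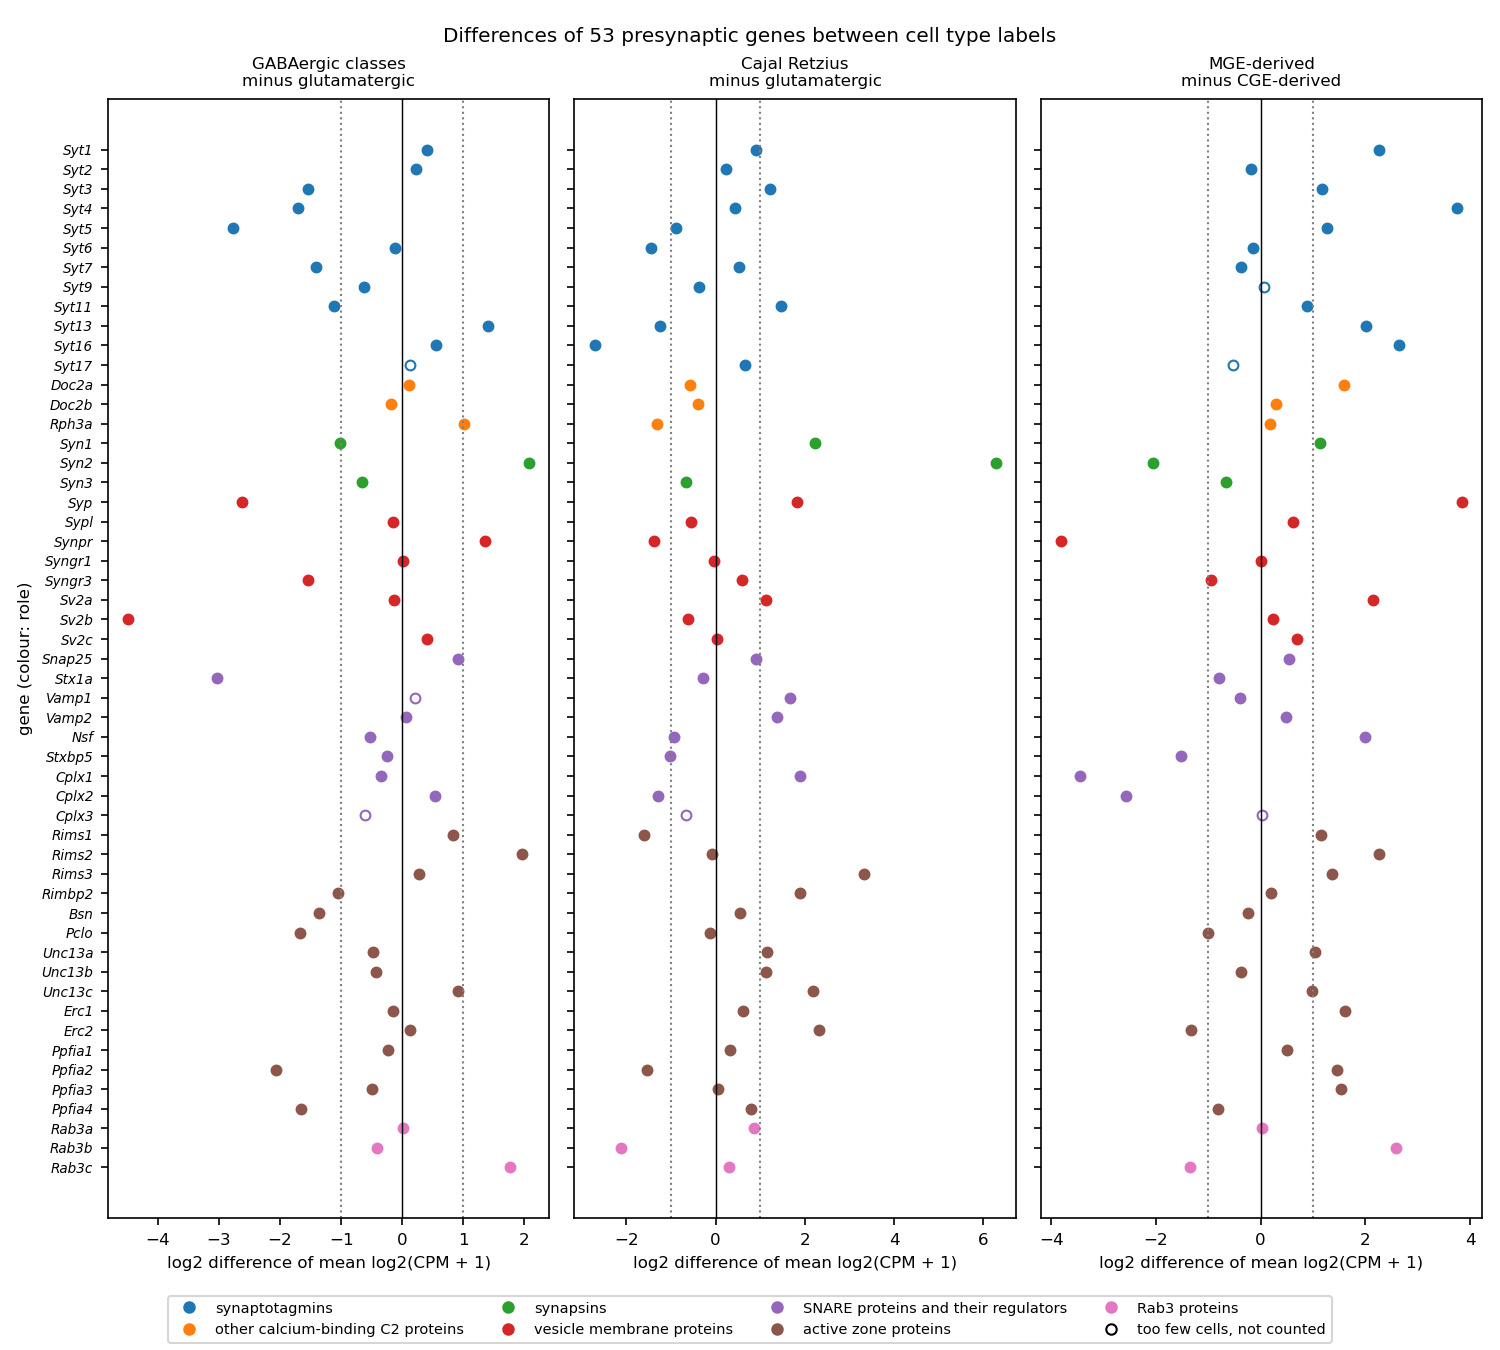
Log2 difference of each presynaptic gene in 3 comparisons (GABAergic labels minus glutamatergic, Cajal Retzius minus glutamatergic, and MGE-derived minus CGE-derived), 1 row per gene and coloured by role, with open circles for genes not counted. Sv2b lies farthest to the left in the first panel, Syn2 farthest to the right in the second, and Syp and Synpr at opposite ends of the third.

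Between the glutamatergic labels most presynaptic genes stood lower in Glutamatergic 1: of 47 counted, 38 were lower, where 48.7% of all 12564 genes were, and 1 (Rimbp2) was higher, where 1.19% were. The median log2 difference was -1.88 over the presynaptic genes and -0.97 over all genes, and the Glutamatergic 1 cells had fewer genes with a count (median 4954 against 7585). By summed counts the median was -0.40, with 9 genes lower. With only the cells of like gene number, 5 against 2, it was -0.73, a value that rests on very few cells. The genes found in few Glutamatergic 1 cells stood apart most. Synpr was found in 9 of 33 cells against 8 of 13 (12 against 69.2 CPM, log2 difference -3.14, SD 1.72 and 3.66). Syt13 was at 16 against 52.7 CPM, the synaptogyrin gene Syngr1 at 14.3 against 38.8 CPM, and Syn2 at 59.0 against 135 CPM. Syt6, Syt3, Rims1 and Ppfia3 were the other 4 genes named, 2.33-fold to 2.58-fold lower by sums.

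Vamp2 was found in 28 of 33 Glutamatergic 1 cells (0, 230 and 1146 CPM) and in all 13 Glutamatergic 2 cells (248, 390 and 1181 CPM), with a log2 difference of -1.94 (SD 3.09 and 0.66) and a 1.65-fold difference by sums. Snap25 (-1.88), Syp (-2.17), Syn1 (-2.73), Pclo (-2.89), Nsf (-2.83), Cplx1 (-2.37), Cplx2 (-2.83) and Bsn (-2.57) were lower likewise. Syt1 had a log2 difference of -1.73 but by sums stood higher, at 337 against 256 CPM. Among Htr3a cells the log2 difference of Vamp2 was -1.01 and that of Rab3a -0.74, from -1.47. In the few cells of like gene number Snap25 (1.00), Cplx1 (2.10), Syt1 (2.48), Rims1 (3.13), Syt6 (3.46) and Ppfia3 (1.21) stood the other way. The upper ends of the Glutamatergic 1 cells reached or passed those of Glutamatergic 2 for Snap25, Syp and Syt1.

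Within Glutamatergic 1, the 10 Nex cells and the 23 Htr3a cells could be compared under 1 label. Of 49 genes counted, 9 were higher in the Nex cells, where 14.3% of all 12508 genes were, and 18 were lower, where 19.1% were. The median log2 difference was -0.56 over the presynaptic genes and -0.10 over all genes. Of 10 synaptotagmins counted, 3 were higher (Syt1, Syt4 and Syt16) and 3 lower (Syt3, Syt5 and Syt7, at log2 differences of -1.21, -2.23 and -1.20). Syt4 was found in 9 of 10 Nex cells (0, 2682 and 5114 CPM) and in 12 of 23 Htr3a cells (0, 0.652 and 907 CPM), with a log2 difference of 6.60 (SD 3.72 and 4.02) and 13.1-fold by sums. Syt1 was found in 9 of 10 cells (0, 554 and 2110 CPM) against 18 of 23 (0, 5.63 and 893 CPM), a log2 difference of 4.34 (SD 3.30 and 3.87). Stx1a was found in all 10 Nex cells (33, 432 and 932 CPM) and in 18 of 23 Htr3a cells (0, 132 and 1103 CPM), a log2 difference of 3.32 (SD 1.32 and 3.69). Syt4 differed between the GABAergic and glutamatergic labels by a log2 difference of -1.71 with these Nex cells and of -1.24 among Htr3a cells alone. Rims3 (101 against 11.8 CPM) and Syt16 (297 against 86.3 CPM) were higher too, as was Pclo.

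The Rab3 genes stood lower in the Nex cells, whereas the SNARE genes and their regulators went both ways. Of 9 of the latter counted, 4 were lower (Snap25, Vamp2, Nsf and Cplx3) and 4 higher (Stx1a, Stxbp5, Cplx1 and Cplx2). Over all genes 19.1% were lower and 14.3% higher. Rab3c was at 0 in all 10 Nex cells, which allows a share of up to 30% of cells with a count (3 of 10, or 30.8% by the exact interval), and was found in 13 of 23 Htr3a cells at 103 CPM. Rab3a was found in 9 of 10 Nex cells (0, 172 and 376 CPM) and in all 23 Htr3a cells (14.5, 318 and 1486 CPM), a log2 difference of -2.40 (SD 3.20 and 1.67). Vamp2 was found in 6 of 10 against 22 of 23 cells (124 against 376 CPM, log2 difference -3.23, SD 3.93 and 2.06). Snap25 was found in 10 of 10 and 22 of 23 cells at 340 against 620 CPM, a log2 difference of -2.40.

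Of 7 vesicle membrane genes counted, 3 were lower in the Nex cells (Sv2b, Sv2a and Syngr1) and none higher, and 1 of 3 synapsins (Syn2) was lower. Sv2a was at 68.4 against 108 CPM (log2 difference -2.13) and Syngr1 at 2.28 against 18.6 CPM (log2 difference -1.51). Sv2b was found in 2 of 10 Nex cells (0, 0 and 335 CPM) and in 18 of 23 Htr3a cells (0, 104 and 1359 CPM), a log2 difference of -3.26 (SD 3.28 and 3.81). Syn2 was found in 1 of 10 against 12 of 23 cells (0.478 against 79.9 CPM) and Rph3a in 1 of 10 against 14 of 23 (2.71 against 52.5 CPM), so that both Nex levels rest on 1 cell. Syp (0.80), Syn1 (-0.81), Unc13a (0.51), Rims1 (0.87) and Bsn (-0.79) had log2 differences smaller than 1. Nsf had a log2 difference of -2.63, with a count in 4 of 10 Nex cells and 18 of 23 Htr3a cells, and Ppfia2 and Erc2 were lower at 61.0 against 152 CPM and 38.7 against 103 CPM. With only cells of like gene number (7 against 16) the log2 differences were 2.68 for Syt1, 4.11 for Syt16, -1.62 for Sv2b and -1.01 for Rab3a.

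**Figure D5:**
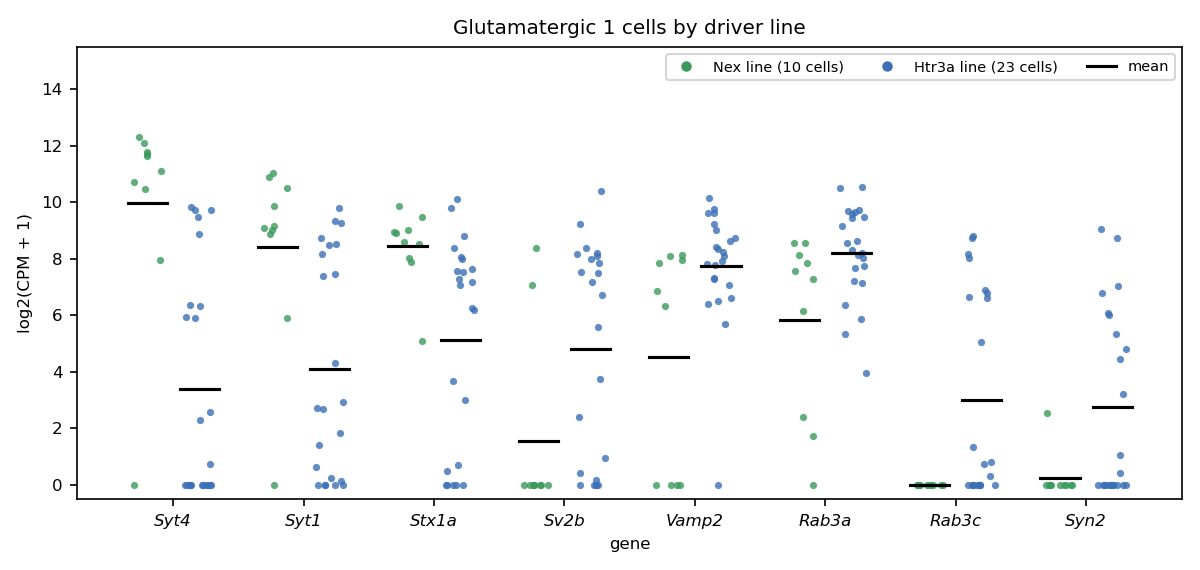
Level of Syt4, Syt1, Stx1a, Sv2b, Vamp2, Rab3a, Rab3c and Syn2 in each Glutamatergic 1 cell, as log2(CPM + 1) on the y axis, for the 10 Nex cells and the 23 Htr3a cells. The bar is at the mean of each line. Syt4 is above 0 in 9 of the Nex cells, and Rab3c is at 0 in all 10.

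Among the MGE-derived cells, the 14 of the Lhx6 line were set against the 28 of the Htr3a line. Of 51 genes counted, 12 were higher in the Lhx6 cells, where 9.01% of all 14147 genes were, and 6 were lower, where 20% were, with median log2 differences of 0.16 and -0.29. With the deposited normalized values 13 were higher and 12 lower. Syp was found in all 14 Lhx6 cells (24.1, 262 and 685 CPM) and in 21 of 28 Htr3a cells (0, 18.8 and 647 CPM), a log2 difference of 4.13 (SD 1.17 and 3.11). Syt1 was found in 14 of 14 against 24 of 28 cells (785 against 289 CPM, log2 difference 2.55, SD 2.80 and 3.57). Erc1 (258 against 117 CPM) and Syngr3 (443 against 219 CPM) were also higher. Bsn was at 2.75 against 35.4 CPM (5 of 14 and 19 of 28 cells, 12.9-fold, log2 difference -1.97, SD 1.54 and 2.85), and Rph3a at 25.5 against 164 CPM (log2 difference -1.12). Of the genes set to be given whatever their values, Vamp2 (1.36), Cplx1 (2.66), Nsf (1.37) and Syn1 (1.36) were also higher and Unc13a (-1.57) and Cplx2 (-1.01) lower. With only cells of like gene number (10 against 9) Nsf (-0.29) and Cplx2 (0.27) turned, Erc1 (0.65), Syngr3 (0.76), Vamp2 (0.50) and Unc13a (-0.79) were under 1, and Syt1 was at 1.53, Bsn at -1.09 and Rph3a at -2.51.

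The 11 VZ-derived cells were compared with the 115 cells of the other named neuron labels. Of 50 genes counted, 8 were lower, where 12.9% of all 12576 genes were, and 5 were higher, where 9.79% were, with median log2 differences of -0.26 and -0.11. With only cells of like gene number (8 against 86) the medians were -0.64 and -0.28, and 17 genes were lower. Snap25, Vamp2 and Rab3a were found in 11 of 11 of these cells, Rab3a at 312, 424 and 790 CPM as lowest, median and highest. Syt1 was found in 5 of 11 cells (0, 0 and 746 CPM) against 101 of 115 (0, 179 and 3673 CPM), a log2 difference of -3.48 (SD 3.85 and 3.61). Nsf (83.8 against 206 CPM), Bsn (9.19 against 53.4 CPM) and Rims2 (12.9 against 45.4 CPM) were also lower. Stx1a, Syt13, Synpr and Rims3 were the other genes called lower. Sv2b was found in 7 of 11 cells (0, 4.74 and 661 CPM) against 45 of 115 (log2 difference 1.83, SD 4.42 and 3.49), and Ppfia2 was at 260 against 91.4 CPM. Sv2b held 56.9% of the SV2 genes' CPM per kb in this label, beside 46.7% in Glutamatergic 1 and 49.0% in Glutamatergic 2. Among Htr3a cells alone 11 genes were higher, with Sv2b at a log2 difference of 2.88, Ppfia2 at 2.81 and Rims2 at -0.86.

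Genes of vesicle recycling by endocytosis (20) and of vesicle acidification by the V-ATPase (15) were read in the same comparisons. The share of all genes called in the same direction is the one given above for each comparison, and is repeated here. In GABAergic against glutamatergic cells, 5 of 20 endocytosis genes and 3 of 15 V-ATPase genes were lower (9.74% of all genes), among them Snap91, a clathrin adaptor, and Sh3gl2, encoding endophilin. In that comparison 1 endocytosis gene (Dnm3, encoding a dynamin, at 252 against 106 CPM) and no V-ATPase gene was higher (6.07%). In Cajal Retzius cells 8 of 19 and 6 of 15 were higher (34.0%), and 1 and 0 lower (7.97%). In Glutamatergic 1 against Glutamatergic 2, 15 of 19 and 9 of 15 were lower (48.7%) and none higher (1.19%). In Nex against Htr3a cells of Glutamatergic 1, 7 of 20 and 9 of 15 were lower (19.1%), 2 and 1 were higher (14.3%), and the V-ATPase genes had a median log2 difference of -1.61. MGE-derived against CGE-derived cells had 2 of 19 and 5 of 15 higher (17.4%) and 6 and 0 lower (10.8%). In Lhx6 against Htr3a cells 2 of 20 and 4 of 15 were higher (9.01%) and 4 and 1 lower (20%). Between the MGE-derived labels 1 of 20 and 1 of 15 were higher in MGE-derived 1 (2.61%), and 2 and 5 lower (22.6%). In VZ-derived cells 3 of 19 and 1 of 15 were higher (9.79%) and 4 and 4 lower (12.9%).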

How the data were processed

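Cytosol of 162 patched cells was sequenced as 1 library per cell. The authors deposited a table of read counts per Ensembl gene and a table of normalized counts by symbol, a signal that equals the counts times 1 factor per cell (within 0.1% for 99.8% of values). The submitters' processing notes name Trimmomatic, STAR, featureCounts and GRCm38, and whether counting used strand is not given in the sources used here. A symbol table of counts held only in part was not used. The 22880 rows gave 22879 genes after rows that share a symbol were summed.

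From the counts, CPM were computed with each cell's own total (1710224 to 24836041 in the 148 passed cells), then means over cells of log2(CPM + 1), CPM of summed counts, and shares of cells with exact 95% binomial intervals. No pairing, edgeR or other test was run, because each GEO sample is 1 cell and no label names an animal. Genes were named if a count was present in 50% or more of the cells of the group with the higher level and the fold by sums was at least 2, also without the cell of highest level, up to 8 in each direction. Another 15 genes were set to be given whatever their values. These were Snap25, Stx1a, Vamp2, Syt1, Syp, Syn1, Sv2a, Cplx1, Cplx2, Rab3a, Bsn, Pclo, Unc13a, Rims1 and Nsf. Not every one is given in each comparison, and some left out were past a log2 difference of 1. The members, lists and rules were chosen with earlier results of these data known. One further gene list is not reported here. Alternatives were a pseudocount of 10, no filter, summed counts, thinned counts, the deposited normalized values, cells of like gene number, the Htr3a line alone, and leaving out a label or the highest cell. The calculations were tested on simulated data. Tools were Python 3.11.15, numpy 2.4.6, pandas 2.3.3, scipy 1.17.1 and matplotlib 3.10.9.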

Additional observations from a re-analysis of the deposited data

Results flagged for a closer look

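In 5 groups of 4 to 10 cells (the GABAergic label, which holds cells of both its lines, and cells of 1 label and 1 line in the others), 16 measures were examined for a cell that stood apart from the rest, and 9 of the 80 sets held one. Chance flags about 1 in 20 such groups where values are spread smoothly, and the rate for values with many zeros was not computed. All values here are log2(CPM + 1).

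In the 4 GABAergic cells, Nsf was at 5.87 in 1 cell and at 0 in the other 3. Among the 7 MGE-derived 1 cells of the Lhx6 line, the lowest Snap25 cell was at 7.95, below the next at 9.42, the lowest Cplx1 cell was at 0, below the next at 6.21, and the highest Cplx2 cell was at 6.72, above the next at 2.17. Among the 7 MGE-derived 2 cells of that line, 1 cell had Stx1a at 7.71, the next 2.12 and the median 0.

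Among the 10 Nex cells of Glutamatergic 1, 3 different cells stood lowest in Stx1a (5.09, the next 7.89), in Syt1 (0, the next 5.92) and in Syp (0, the next 4.49). Among the 8 VZ-derived cells of the Htr3a line, 1 cell had Syp at 0 and the next was at 5.44.

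The 14 cells that did not pass the submitters' quality control entered no comparison. They had a median of 14 presynaptic genes with a count (range 1 to 30), and Snap25 had a count in 8 of them.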

How the results depend on the processing

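A count was taken as unmoved within 1.5 times its first value, and a median or log2 difference within 1 SD between cells, a wide limit. By that, 193 values of counts and medians were unmoved and 34 moved. A median smaller than 1 could change sign and still count as unmoved, as in Cajal Retzius (0.31, and -0.25 by summed counts). Of 545 values of named genes, 539 were unmoved, 3 moved and 3 reversed, and 31 of the 539 lay under a log2 difference of 1. The 539 include 65 values without the filter, which could not move because the filter leaves a gene's own difference unchanged. With a pseudocount of 10, fewer genes passed a log2 difference of 1: 2 higher and 8 lower in GABAergic against glutamatergic, 0 and 25 in Glutamatergic 1 against 2 (median -1.02), 8 and 3 in Cajal Retzius, 3 and 1 in VZ-derived, 10 and 4 in MGE-derived against CGE-derived, 1 lower in MGE-derived 1 against 2, and 2 lower in Lhx6 against Htr3a. Summed counts gave 2 higher and 9 lower in Glutamatergic 1 against 2 (median -0.40), 6 higher and 16 lower in Cajal Retzius, and 10 higher in MGE-derived 1 against 2. Single genes moved with them: Syn2 in Cajal Retzius to 2.68, and Rab3c and Syn2 in Nex against Htr3a to -6.70 and -5.77.

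With cells of like gene number, 10 genes were higher in GABAergic against glutamatergic, 11 higher and 21 lower in Glutamatergic 1 against 2 (median -0.73), 16 lower in Cajal Retzius, 17 lower in VZ-derived, 8 higher in MGE-derived 1 against 2, 11 lower in Lhx6 and 15 higher in Nex against Htr3a. Syt6 (3.46), Ppfia3 (1.21) and Rims1 (3.13) reversed in Glutamatergic 1 against 2, from 5 against 2 cells. Htr3a cells alone gave 0 higher in Glutamatergic 1 against 2, as did leaving out the highest cell, 11 higher in VZ-derived and 17 lower in MGE-derived 1 against 2. The deposited normalized values gave 15 lower in MGE-derived 1 against 2 and 12 lower in Lhx6 against Htr3a. The cause of these moves was not tested.

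Leaving out 1 GABAergic label at a time kept the median log2 difference between -0.51 and -0.14, with 6 to 9 genes higher and 13 to 15 lower. Leaving out 1 of the 4 GABAergic cells gave medians of 25 to 31 genes with a count. No paired analysis was possible because no label names the embryo, litter or slice of a cell. A gene at 0 in a cell may be unexpressed or missed, which these depths cannot tell apart.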
